A study of Mus musculus with 6 samples.

Results

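The genes that switch the ERK pathway off again after it has been switched on were followed across mouse cell lines. Their labels name a mutant Kit receptor or a control vector. The genes were the 3 dual-specificity phosphatases Dusp4, Dusp5 and Dusp6, the 3 Sprouty genes Spry1, Spry2 and Spry4, and the 3 Spred genes Spred1, Spred2 and Spred3. These 9 genes were chosen by name, with earlier results of these data known, out of 19505 genes with a probe set on the array. Each was read by its single probe set. Transcripts were measured on 6 Affymetrix Clariom S arrays, 2 for each of 3 cell lines derived from melan-a, an immortalized C57BL/6J mouse melanocyte line. The line mKitK641E(T), here T, and the line mKitK641E(PT), here PT, were made with Kit carrying the activating substitution K641E, and their labels call them transformed melanoma. The line mVec was transduced with the control vector CD516B2 and is labelled as melanocytes. No line was treated, and all were kept in the same medium with serum. The titles add "C3#" for T and "hi exp" for PT, and the sources used here do not say what T, PT and these words stand for. The arrays of a line carry replicate numbers, and the labels do not say whether they come from separate cultures.

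Kit is a receptor tyrosine kinase that melanocytes use to receive stem cell factor, and it signals through Ras, Raf and MEK to the kinase ERK. ERK in turn switches on transcription of its own inhibitors, so that a strong signal is followed by a brake. Dusp phosphatases remove the activating phosphates from ERK itself, Sprouty proteins act on the steps between receptor and Raf, and Spred proteins bring neurofibromin to the membrane, where it turns Ras off. Spred1 and Spred2 carry a domain that binds Kit. In human mucosal melanoma, SPRED1 is a known target of inactivating mutations.

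Facts about the arrays set the limits of every value below. Values are log2 expression values as deposited, and a difference of 1 is a doubling. An array has 5222 negative-control probe sets, and their 95th percentile, from 8.74 to 9.16, was taken as its background limit. A probe set at or under the limit on both arrays of a line is called at background there. From 29% to 32.6% of gene probe sets were above the limit of an array, and the medians of the arrays were 5.64 to 5.89. The replicate arrays correlated over 22206 gene probe sets with r = 0.993 for T, 0.994 for PT and 0.995 for mVec, a figure over genes, which are no independent replicates. Each line is 1 line, so the p-values measure the spread between its arrays, which may be technical. The probe set of Kit, the introduced gene, had log2 values of 4.53 and 5.18 on the T arrays, 4.53 and 3.84 on the PT arrays and 4.68 and 4.97 on the mVec arrays, at background on all 6. Kit was thus not measured as higher in the lines labelled with it, with a log2 difference from mVec of 0.03 in T and -0.63 in PT (limma adjusted p = 0.956 and 0.141). No source used here says whether its probes match the introduced sequence, and T and PT are called the Kit-labelled lines. Melanocyte markers were at background in every line for 9 of 10 genes, Tyr, Tyrp1, Dct, Pmel, Mlana, Sox10, Kit, Ednrb and Slc45a2, while Mitf was above it in T. Keratinocyte markers (8 measured) and leukocyte markers (5 measured) were at background on every array. Fibroblast markers (9 measured) were above background on both arrays for 6 genes in mVec, 3 in T and 1 in PT. The line mVec, labelled as melanocytes, thus had 6 of 9 fibroblast markers and 0 of 10 melanocyte markers above background. What this means for the identity of the lines was not tested.

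The 250 bases before the annotated start are shown for 3 members, Spry1 with the largest fall in T, Dusp6 as the phosphatase that fell in both Kit-labelled lines, and Dusp5 as a phosphatase that passed no test. Dusp6 and Dusp5 were picked after their values were seen. The sequences are those of RefSeq in the build GRCm38.p6, on the strand of the gene, and the build behind the array values is not named in those sources. Capitals mark matches on either strand to the ETS core CGGAA, the AP-1 site TGANTCA, the cyclic AMP element TGACGTCA, the E-box CACGTG, the M-box CATGTG of the MITF family and the CArG box of serum response factor. These motifs were chosen as those of factors downstream of ERK or of the melanocyte lineage.
Spry1, chr3:37639697-37639946, plus strand: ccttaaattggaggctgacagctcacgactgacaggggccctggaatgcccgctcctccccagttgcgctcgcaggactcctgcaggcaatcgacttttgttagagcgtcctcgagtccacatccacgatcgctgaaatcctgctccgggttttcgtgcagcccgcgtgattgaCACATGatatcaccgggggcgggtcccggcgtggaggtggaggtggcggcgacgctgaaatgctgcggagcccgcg
Dusp6, chr10:99262981-99263230, plus strand: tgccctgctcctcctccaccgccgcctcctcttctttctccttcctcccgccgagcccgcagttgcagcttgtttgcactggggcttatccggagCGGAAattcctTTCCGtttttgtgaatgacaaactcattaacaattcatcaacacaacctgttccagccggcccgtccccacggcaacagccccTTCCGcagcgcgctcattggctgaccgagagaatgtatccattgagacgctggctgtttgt
Dusp5, chr19:53528895-53529144, plus strand: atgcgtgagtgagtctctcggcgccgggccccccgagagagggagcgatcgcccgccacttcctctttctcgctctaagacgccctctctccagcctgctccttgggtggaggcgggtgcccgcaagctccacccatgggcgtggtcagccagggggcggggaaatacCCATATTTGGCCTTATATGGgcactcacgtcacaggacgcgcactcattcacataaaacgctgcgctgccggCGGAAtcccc

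The Spry1 window held 1 M-box on the minus strand, from base 76 to base 71 before the start. The Dusp6 window held 3 ETS cores, and the Dusp5 window held 1 ETS core and 2 CArG boxes standing next to each other. The CArG boxes run from base 82 to base 73 and from base 72 to base 63 before the start. Windows were at hand for 7 of the 9 members, Dusp5, Dusp6, Spry1, Spry2, Spred1, Spred2 and Spred3. Among these 7, the ETS core was found in 4 (Dusp5, Dusp6, Spred1 and Spred2), against 25.2% of all 32851 windows of the same length. The CArG box was found in 1 of the 7, Dusp5, against 1.47% of all windows, and the M-box in 1, Spry1, against 12.3%. The AP-1 site (6.75% of all windows), the cyclic AMP element (1.55%) and the E-box (6.02%) were found in 0 of the 7. A match is a string of letters and not a bound site, and the members that fell in both Kit-labelled lines did not share any of these motifs in this window.

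Dusp6, Spry1, Spry2 and Spred3 were lower than in mVec in both Kit-labelled lines, and Dusp4 in PT, while Spry4 was higher in T. In T, 4 of the 9 were called lower (Dusp6, Spry1, Spry2 and Spred3) and 1 higher (Spry4), and 4 were not called. In PT, 5 were called lower (the same 4 and Dusp4) and 0 higher, also at an unadjusted p under 0.05, and 4 were not called. A call is a limma adjusted p under 0.05 over all gene probe sets. In T, 15.5% of all gene probe sets were called lower and 16.9% higher, and in PT 18% were called lower and 17.9% higher. A closer comparison for genes this bright is with the 7836 probe sets above background on both arrays of at least 1 line, to which all 9 members belong. Of these, 27.4% were called lower and 36.6% higher in T, and 32% and 37.2% in PT, against 44.4% and 55.6% of the members called lower in T and in PT. Spry1 entered that set through mVec alone. The median log2 difference of the members was -0.43 in T and -1.38 in PT, beside 0.01 and 0.08 over all gene probe sets and 0.18 and 0.12 over those above background. The comparisons of T and of PT share the mVec arrays and are not independent of each other.

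**Figure D1:**
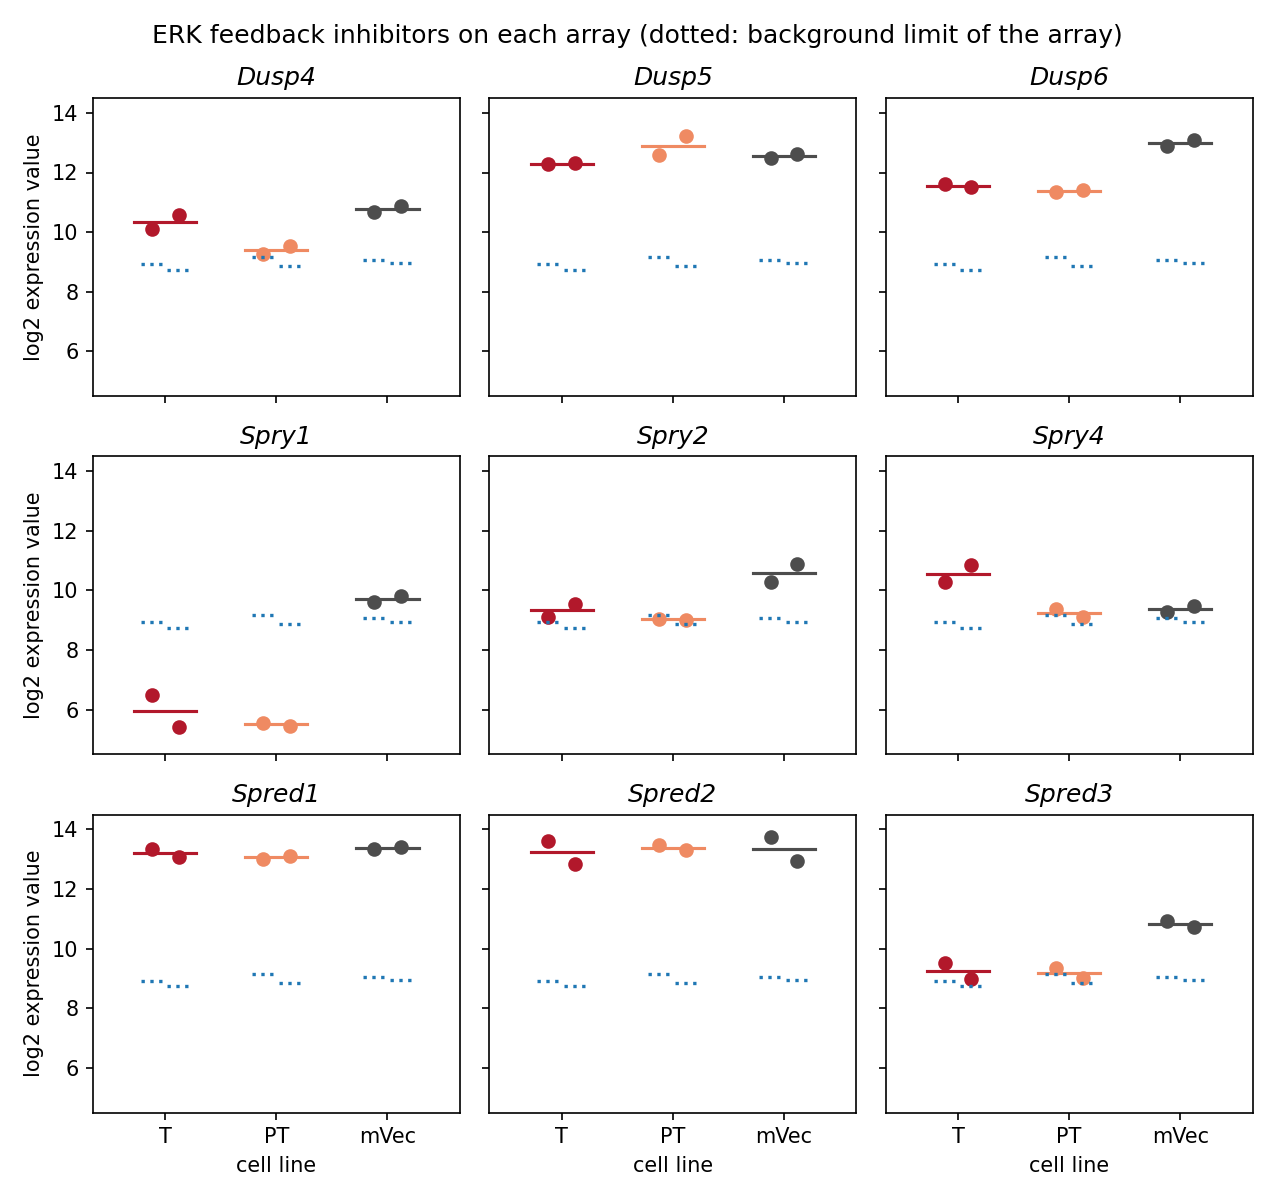
Log2 expression value (vertical axis) of each feedback inhibitor on each array of T, PT and mVec (horizontal axis). Points are single arrays, solid lines are means of 2 arrays, and dotted lines are the background limits, which lie between 8.74 and 9.16. Spry1 sits far under the limits in T and PT and above them in mVec, Dusp6, Spry2 and Spred3 are lower in both Kit-labelled lines than in mVec, and Spry4 is high in T alone.

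Among the phosphatases, Dusp6 was lower in both Kit-labelled lines. Dusp6, the cytoplasmic phosphatase that is selective for ERK, had log2 values of 11.62 and 11.50 on the T arrays, 11.35 and 11.42 on the PT arrays and 12.90 and 13.09 on the mVec arrays. All arrays of the Kit-labelled lines lay below both mVec arrays by more than a doubling, and the arrays of a line differed by at most 0.18. Dusp6 was 2.71-fold lower in T (log2 difference -1.44 ± 0.20, SE; adjusted p = 0.000338) and 3.04-fold lower in PT (-1.61 ± 0.20, adjusted p = 0.000129). T and PT were close to each other for Dusp6, with a difference of 0.17 and a 95% interval from -0.28 to 0.62.

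Dusp4 separated the Kit-labelled lines. Dusp4, a nuclear phosphatase that acts on ERK and on JNK, had log2 values of 10.11 and 10.56 on the T arrays, 9.25 and 9.53 on the PT arrays and 10.67 and 10.87 on the mVec arrays. The PT arrays were the lowest, the mVec arrays the highest, and the 3 lines did not overlap. Dusp4 fell in PT, by 2.60-fold (-1.38 ± 0.23, adjusted p = 0.00101), and the value in T did not pass (-0.43 ± 0.23, adjusted p = 0.212). The difference between the Kit-labelled lines passed the test at 0.94 ± 0.23 in T minus PT (adjusted p = 0.0392). The difference no longer passed when T replicate 2 was left out (0.72, adjusted p = 0.202), nor without PT replicate 1 (0.81, adjusted p = 0.218), without PT replicate 2 (1.08, adjusted p = 0.0884), and without mVec replicate 1 or replicate 2 (0.94, adjusted p = 0.066 each). It was also lost in the fit of T and PT alone (adjusted p = 0.066), which is the same fit as without an mVec array. With quantile normalization it was lost too (0.75, adjusted p = 0.0746).

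Dusp5, the nuclear phosphatase that is specific for ERK, passed no comparison. Its log2 values were 12.29 and 12.31 on the T arrays, 12.58 and 13.22 on the PT arrays and 12.49 and 12.61 on the mVec arrays. The T arrays were the lowest and the PT arrays spread widest, with 1 PT array inside the mVec range. The difference was -0.25 in T (95% interval -0.80 to 0.30) and 0.35 in PT (-0.20 to 0.91). T minus PT was -0.60 ± 0.25, with an adjusted p of 0.183. The intervals leave room for changes of up to 0.91 on the log2 scale against mVec. Of the 3 phosphatases, only Dusp6 was thus called lower in both Kit-labelled lines.

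Among the Sprouty genes, Spry1 and Spry2 were lower in both Kit-labelled lines, while Spry4 was higher in T alone. Spry1, which blocks receptor signals upstream of Ras, had log2 values of 6.50 and 5.41 on the T arrays, 5.56 and 5.45 on the PT arrays and 9.62 and 9.80 on the mVec arrays. It was above background on both mVec arrays and at background on all 4 arrays of the Kit-labelled lines, so that only a lower bound of its fold can be given. Spry1 was lower in T by at least 1.83-fold and in PT by at least 1.62-fold, taken against the background limit. The fitted log2 differences, which include values under the limit, were -3.75 ± 0.32 in T (adjusted p = 1.39e-05) and -4.20 ± 0.32 in PT (adjusted p = 4.53e-06). Only 1.76% of all gene probe sets had a more negative difference than Spry1 in T, and 1.83% in PT. A lower level in these cultures can mean fewer cells with the transcript or less of it per cell, and the arrays cannot tell these apart.

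Spry2, which binds the adaptor Grb2 and the ubiquitin ligase Cbl, also fell in both Kit-labelled lines. Its log2 values were 9.11 and 9.56 on the T arrays, 9.05 and 9.02 on the PT arrays and 10.27 and 10.89 on the mVec arrays. The arrays of both Kit-labelled lines lay below both mVec arrays, and 1 of the 2 PT arrays was under its background limit. Spry2 was 2.37-fold lower in T (-1.24 ± 0.26, adjusted p = 0.00448) and 2.93-fold lower in PT (-1.55 ± 0.26, adjusted p = 0.000972). T minus PT was 0.31, with a 95% interval from -0.28 to 0.90.

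Spry4, another inhibitor of Ras activation by growth factor receptors, was the 1 member called higher in a Kit-labelled line. Its log2 values were 10.27 and 10.85 on the T arrays, 9.36 and 9.12 on the PT arrays and 9.26 and 9.49 on the mVec arrays. Both T arrays stood above all 4 other arrays, while the PT and mVec arrays overlapped. Spry4 was 2.28-fold higher in T than in mVec (1.19 ± 0.25, adjusted p = 0.00408), where 89.6% of all gene probe sets had a more negative difference. In PT the difference from mVec was -0.13, with a 95% interval from -0.69 to 0.42 (adjusted p = 0.751), and its sign changed when the arrays were rescaled. The Kit-labelled lines differed from each other by 1.32 ± 0.25 (T minus PT, 2.50-fold, adjusted p = 0.0124). This difference did not pass when T replicate 2 was left out (1.03, adjusted p = 0.0788), nor without PT replicate 1 (1.44, adjusted p = 0.0614) and without PT replicate 2 (1.20, adjusted p = 0.0806), each of which leaves a line with 1 array.

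Of the Spred genes, Spred3 fell and the other two did not pass a test. Spred3, the family member whose Kit-binding domain is not functional, had log2 values of 9.53 and 8.97 on the T arrays, 9.36 and 9.0 on the PT arrays and 10.93 and 10.72 on the mVec arrays. The arrays of T and PT overlapped, just above background, and both mVec arrays lay higher. Spred3 was 2.99-fold lower in T (-1.58 ± 0.25, adjusted p = 0.000807) and 3.13-fold lower in PT (-1.65 ± 0.25, adjusted p = 0.000509). T minus PT was 0.07, with a 95% interval from -0.50 to 0.64.

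Spred1, which recruits neurofibromin to turn Ras off, was bright in every line. Its log2 values were 13.36 and 13.07 on the T arrays, 13.02 and 13.10 on the PT arrays and 13.33 and 13.42 on the mVec arrays. The T and mVec arrays overlapped, and the PT arrays lay slightly below both mVec arrays. The difference was -0.16 in T (95% interval -0.62 to 0.31, adjusted p = 0.652) and -0.32 in PT (-0.78 to 0.15, adjusted p = 0.300). These intervals do not reach a fall of 1 on the log2 scale.

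Spred2, which also inhibits Ras and Raf signalling, was the noisiest of the bright members. Its log2 values were 13.62 and 12.85 on the T arrays, 13.48 and 13.31 on the PT arrays and 13.76 and 12.94 on the mVec arrays. The lines overlapped, and the gap between replicate arrays was 0.77 in T and 0.83 in mVec, beside a median gap over all gene probe sets of 0.26 and 0.21. The difference was -0.12 in T (95% interval -0.85 to 0.62) and 0.04 in PT (-0.70 to 0.78). The direction for Spred2 was not settled, since leaving out single arrays turned its sign in either line.

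**Figure D2:**
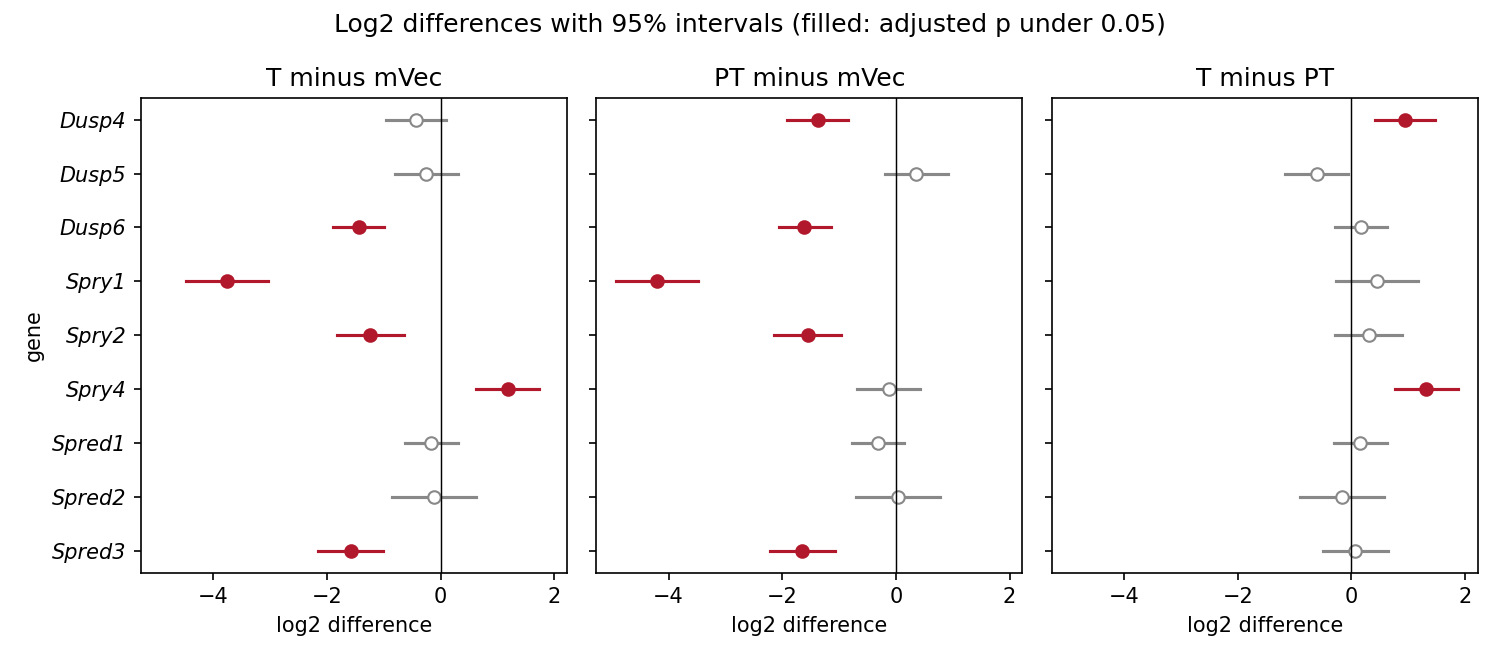
Log2 difference (horizontal axis) of each feedback inhibitor (vertical axis) for T and PT against mVec and for T against PT, from limma. Points are estimates, bars are 95% intervals, and filled points have an adjusted p under 0.05. Dusp6, Spry1, Spry2 and Spred3 are filled and left of 0 in both comparisons with mVec, and T minus PT has filled points for Dusp4 (0.94) and Spry4 (1.32) alone.

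Between the Kit-labelled lines, 2 of the 9 members were called, both higher in T (Dusp4 and Spry4), and 0 lower, where 5.67% of all gene probe sets were called higher and 2.7% lower. Among probe sets above background these shares were 12.3% and 5.68%. An unadjusted p under 0.05 was reached by 3 members, Dusp4, Spry4 and Dusp5 (0.00277, 0.000406 and 0.0355). The count of 2 became 1 with quantile normalization and in the fit of T and PT alone, which is the same fit as without an mVec array. It became 0 without T replicate 2, without PT replicate 1 or without PT replicate 2.

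The members' profiles over the 6 arrays describe the same split. The profile of Dusp6 was most like that of Spry1 (Pearson r = 0.99), and the profile of Spred3 was most like that of Spry1 too (r = 0.98). Spry2 was closest to Dusp6 (r = 0.95), Dusp4 to Spry2 (r = 0.84) and Spred1 to Spry1 (r = 0.82). Spry4, Dusp5 and Spred2 had no close partner, with highest correlations of 0.33, -0.03 and 0.26. Outside the family, the 3 profiles most like Dusp6 among 4447 candidates were those of Armcx3, Trafd1 and Osmr (r = 0.999 each). Armcx3 averaged 6.57 in T, 5.96 in PT and 10.98 in mVec. These correlations rest on 6 arrays of 3 lines, and any gene that is lower in both Kit-labelled lines than in mVec tends to have a high r with Dusp6.

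**Figure D3:**
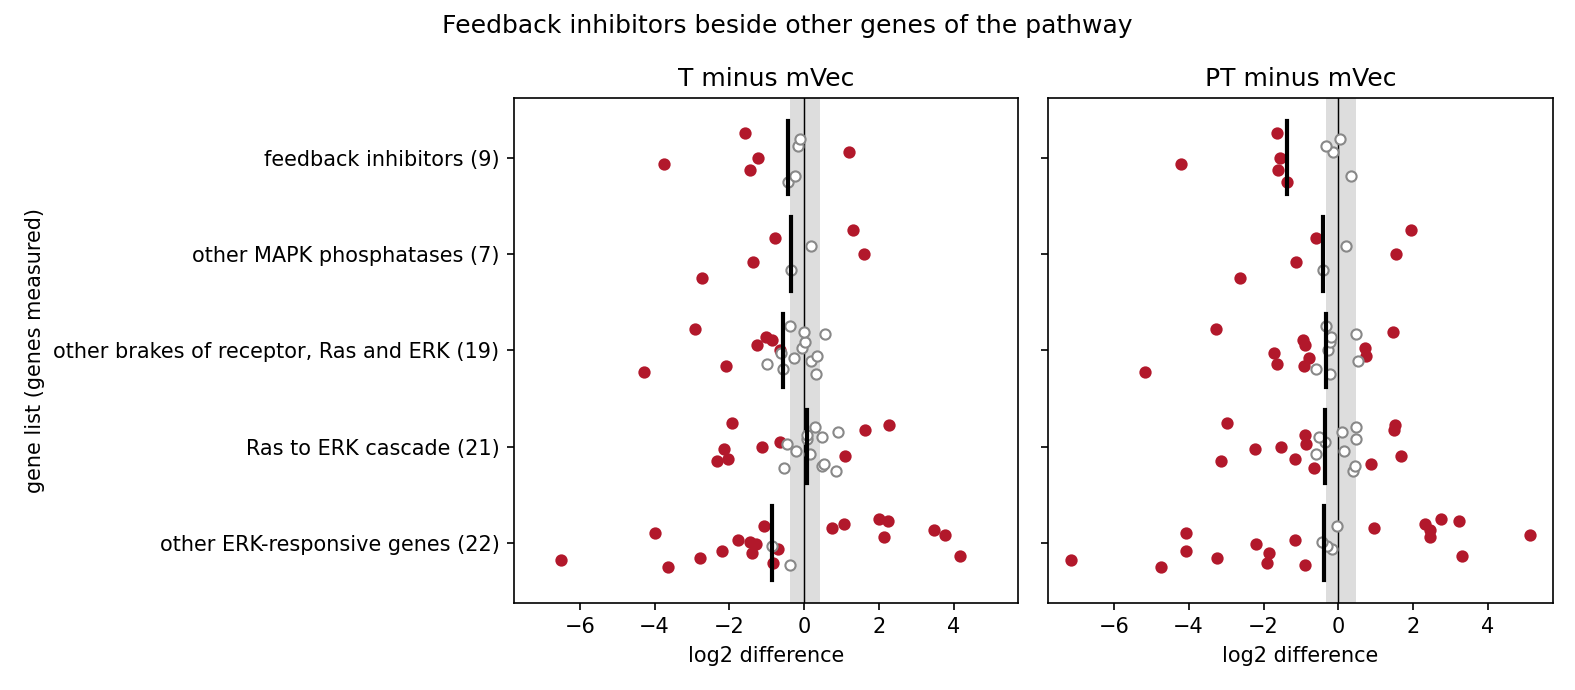
Log2 differences (horizontal axis) of the feedback inhibitors and of 4 other lists of pathway genes (vertical axis, number of measured genes in brackets) in T minus mVec and PT minus mVec. Each point is a gene, filled where the adjusted p is under 0.05, black bars are list medians, and the grey band spans the middle 50% of all gene probe sets. Genes of every list lie on both sides of 0, and the median of the feedback inhibitors is -0.43 in T and -1.38 in PT.

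Other MAPK phosphatases moved in both directions. Of 7 measured, 3 were called lower (42.9%) and 2 higher (28.6%) in T, and likewise in PT, with medians of -0.36 and -0.41. Of all gene probe sets, 15.5% were called lower and 16.9% higher in T, and 18% and 17.9% in PT. Of those above background, to which 4 of the 7 belong, the shares were 27.4% and 36.6% in T and 32% and 37.2% in PT. Dusp1, the phosphatase induced by stress and growth factors that acts mainly on p38 and JNK, was 6.63-fold lower in T (-2.73 ± 0.22, adjusted p = 1.03e-05) and 6.17-fold lower in PT (-2.62 ± 0.22, adjusted p = 9.35e-06). Dusp7, a cytoplasmic ERK phosphatase closely related to Dusp6, was at background in both Kit-labelled lines and above it in mVec. It was lower in T by at least 1.93-fold (adjusted p = 0.00386) and in PT by at least 1.70-fold (adjusted p = 0.0107), a call that was lost without PT replicate 1 (adjusted p = 0.0754) or without mVec replicate 1 (adjusted p = 0.108). The third gene called lower was Dusp10. Dusp16, which acts on JNK and p38, went the other way and was higher in T by at least 1.57-fold (adjusted p = 0.000797) and in PT by at least 2.46-fold (adjusted p = 4.19e-05). Dusp8 was called higher in both lines (adjusted p = 0.00371 and 0.00418), with all arrays at background and therefore no fold. The count of 3 lower in PT was 1 without PT replicate 1 and 1 without mVec replicate 1. The count of 2 higher was 1 in either line when probe sets at background were left out, since Dusp8 is one of them.

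Brakes of the pathway outside these families, with Spry3 added, had more genes called lower than higher. Of 19 measured genes, 7 were lower and 0 higher in T by limma (0 higher at an unadjusted p under 0.05), and 1 was higher without T replicate 1. In PT 8 were lower and 3 higher. The shares called lower were 36.8% of all 19 in T and 42.1% of all 19 in PT. Over all gene probe sets they were 15.5% and 18%, and over those above background, to which 15 of the 19 belong, 27.4% and 32%. The shares called higher, 0% and 15.8%, stand beside 16.9% and 17.9% of all and 36.6% and 37.2% of those above background. The medians were -0.57 in T and -0.32 in PT. Il17rd, also known as Sef, an inhibitor of fibroblast growth factor signalling that belongs to the same feedback group, had log2 values of 7.10 and 6.64 on the T arrays, 5.81 and 6.14 on the PT arrays and 11.24 and 11.04 on the mVec arrays. It was at background in both Kit-labelled lines, lower in T by at least 4.94-fold (-4.27 ± 0.24, adjusted p = 9.63e-07) and in PT by at least 4.37-fold (-5.16 ± 0.24, adjusted p = 2.09e-07). Il17rd belongs to the set above background through mVec alone. Lrig1, which sends receptors to degradation, was lower in T, with a log2 difference of -2.10 ± 0.21 (adjusted p = 3.79e-05), and in PT, with -0.92 ± 0.21 (adjusted p = 0.00612). The PT value of Lrig1 did not pass without PT replicate 1 (-0.75, adjusted p = 0.0523). Dok1, an adaptor that recruits the Ras GTPase-activating protein, had log2 values of 8.92 and 8.98 on the mVec arrays, with 1 above background. It was at background in the Kit-labelled lines. Its fitted differences, which include values under the limit, were -2.93 ± 0.23 in T (adjusted p = 6.86e-06) and -3.26 ± 0.23 in PT (adjusted p = 2.38e-06). Against the background limit, Dok1 was lower in T by at least 1.08-fold, and no bound could be given in PT. With a single mVec array above its limit, Dok1 is outside the set above background, although it counts among the genes called lower in both lines. Lztr1, which marks Ras proteins for destruction, was called lower in PT (-1.71 ± 0.23, adjusted p = 0.000195), and its value in T did not pass (-0.62 ± 0.23, adjusted p = 0.0638). The T value of Lztr1 passed with quantile normalization (-0.75, adjusted p = 0.0207) and among probe sets above background (adjusted p = 0.0199). It also passed in the fit of T and mVec alone (adjusted p = 0.0488), which is the same fit as without a PT array. Lztr1 was above background on 1 of the 2 PT arrays and on all arrays of T and mVec. The count of 7 in T was 4 without mVec replicate 1. In PT the count of 8 lower was 5 without PT replicate 1, without mVec replicate 1 or without mVec replicate 2, and the count of 3 higher was 1 without mVec replicate 2.

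The cascade from adaptors to ERK held genes that rose and genes that fell. Of 21 measured genes (9 others on the list are not analysed here), 6 were lower (28.6%) and 3 higher (14.3%) in T. In PT 8 were lower (38.1%) and 4 higher (19%), and the medians were 0.07 in T and -0.37 in PT. Of all gene probe sets, 15.5% were called lower and 16.9% higher in T, and 18% and 17.9% in PT. Of those above background, to which 19 of the 21 belong, the shares were 27.4% and 36.6% in T and 32% and 37.2% in PT. The share lower in T is thus near that above background. Gab1, a docking protein for receptor tyrosine kinases, was at background in the Kit-labelled lines and lower in T by at least 1.47-fold (adjusted p = 4.33e-05) and in PT by at least 1.30-fold (adjusted p = 4.08e-06). Rras, a small GTPase related to Ras, fell 4.41-fold in T (-2.14 ± 0.22, adjusted p = 4.22e-05) and 4.72-fold in PT (-2.24 ± 0.22, adjusted p = 2.27e-05). The kinases Mknk1 and Mknk2, which ERK activates to phosphorylate the translation factor eIF4E, moved apart. Mknk1, above background on 1 of the 2 mVec arrays and on all arrays of the Kit-labelled lines, rose 4.79-fold in T (adjusted p = 3.96e-05) and 2.87-fold in PT (adjusted p = 0.000439), while Mknk2 fell 3.81-fold in T (adjusted p = 0.000205) and 7.81-fold in PT (adjusted p = 8.44e-06). The count of 3 higher in T depended on the setting and was 6 with median-centred arrays, with an intensity trend or among probe sets above background, and 5 with the replicate block.

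Genes that ERK switches on went both ways in the same lines. Of 22 measured genes, 12 were lower (54.5%) and 8 higher (36.4%) in T. In PT 10 were lower (45.5%) and 8 higher (36.4%), and the medians were -0.85 in T and -0.38 in PT. Of all gene probe sets, 15.5% were called lower and 16.9% higher in T, and 18% and 17.9% in PT. Of those above background, to which 20 of the 22 belong, the shares were 27.4% and 36.6% in T and 32% and 37.2% in PT. The shares of the list called higher are thus near those above background. Fos, an AP-1 subunit and immediate early gene, was at background in both Kit-labelled lines and lower in T by at least 40.6-fold and in PT by at least 35.9-fold (adjusted p = 6.77e-08 and 2.39e-08). Etv1, a PEA3 family ETS factor, was 12.5-fold lower in T (-3.64 ± 0.23, adjusted p = 1.95e-06) and at least 20.6-fold lower in PT (adjusted p = 2.87e-07). Fosl1, the AP-1 subunit that accumulates under lasting ERK activity, was 17.7-fold higher in T (4.15 ± 0.34, adjusted p = 1.02e-05) and 9.88-fold higher in PT (3.30 ± 0.34, adjusted p = 3.33e-05). Its mVec arrays differed, and without mVec replicate 1 Fosl1 was 11.7-fold higher in T and 6.54-fold higher in PT, while without mVec replicate 2 it was 26.7-fold and 14.9-fold higher. Epha2, an ephrin receptor, was 13.6-fold higher in T (adjusted p = 1.2e-06) and 34.6-fold higher in PT (adjusted p = 1.39e-07). The falls of Dusp6, Spry1, Spry2 and Spred3 thus stood beside falls of Fos and Etv1 and rises of Fosl1 and Epha2.

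Other groups of transcripts moved with the feedback inhibitors between the Kit-labelled lines and mVec. Of 10 stress and handling genes, which can respond to how cells are harvested, 8 were called lower and 2 higher (Atf3 and Ddit3) in each Kit-labelled line. Fos, Fosb, Junb, Egr1 and Ier2 are on this list and on that of ERK-responsive genes. The summed level of the list, in log2, was 14.93 to 15.12 in T, 14.40 to 14.66 in PT and 16.11 to 16.18 in mVec. Of 9 measured fibroblast markers, 7 were called lower and 1 higher (Col1a2) in each Kit-labelled line, and Thy1 was not called. Their summed level was 12.54 to 12.71 in T, 11.86 to 12.18 in PT and 17.44 to 17.59 in mVec, where Col1a1, Col3a1, Dcn, Postn, Fap and Pdgfrb were above background while Col1a2, Lum and Thy1 were at background. Of all gene probe sets, 15.5% were called lower and 16.9% higher in T, and 18% and 17.9% in PT. Of those above background, the shares were 27.4% and 36.6% in T and 32% and 37.2% in PT. The part of the stress and handling genes or of the fibroblast markers in the differences of the feedback inhibitors was not tested.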

How the data were processed

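Total RNA of 3 cell lines was labelled with biotin and hybridized to Clariom S arrays at a core facility, per the labels' protocols. The deposited table holds the authors' processed log2 values, 1 per probe set and array. Their range and similar array medians show the log2 unit. No source used here names the software, background correction or normalization. Of 28846 rows, 22206 gene probe sets were tested and 6640 controls were left out. A single gene symbol was given for 19572 of them by the platform's annotation table, and none for 2634.

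All 6 arrays entered 1 linear model in R 4.3.3 with limma 3.58.1, with a mean per line, 3 residual degrees of freedom, a prior of 6.36 and no filter on low values. Errors are standard errors of this fit, p-values are two-sided, and adjustment was by Benjamini-Hochberg over all gene probe sets of a comparison. The fit was tested on simulated data. Where a line is at background, a fold is a bound against the mean background limit of its arrays. Centring each array on its median raised every log2 difference from mVec by 0.18 in T and by 0.19 in PT, and moved the share of calls that are higher from 52.3% to 62.3% and from 49.9% to 60.3%. Arrays have no read depth, and their number limits the precision.

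Deviations from the line means, taken at equal replicate numbers, correlated at r = 0.082, 0.043 and 0.040 between lines. With so few arrays, these low values cannot decide whether arrays of equal number shared handling. The alternatives were other scalings, other variance priors, fits of fewer arrays, the replicate block, a filter on dim probe sets and other background limits. The members, gene lists and background limit were chosen with earlier results of these data known. Named besides the members were the 4 largest called changes of each pathway list and the 3 profiles nearest to Dusp6. Dusp10, Atf3 and Ddit3 and the marker genes were named to complete counts. The planned protein sequences were not used here.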

Additional observations from a re-analysis of the deposited data

Results flagged for a closer look

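The Kit-labelled lines differed from each other in 2 feedback inhibitors, by limma's test of T minus PT, which is also the test of the difference between their changes against mVec. Spry4 was higher in T by 1.32 (adjusted p = 0.0124) and Dusp4 by 0.94 (adjusted p = 0.0392). Of the named pathway genes, 3 more were higher in T than in PT: Etv1 by 1.10 (adjusted p = 0.0200), Lztr1 by 1.08 (adjusted p = 0.0198) and Mknk2 by 1.04 (adjusted p = 0.0350). Those lower in T than in PT were Epha2, at -1.35 (adjusted p = 0.00694), and Lrig1, at -1.18 (adjusted p = 0.00999). For all 7 genes the test did not pass in at least 1 of the fits that leave out an array.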

How the results depend on the processing

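With 2 arrays per line, the number of arrays limits precision, and 13 alternatives to the fit were run. For any comparison, leaving out an array of the third line repeats the fit of the compared lines alone, so not all 13 are distinct. The calls against mVec of Dusp6, Spry1, Spry2 and Spred3 in both Kit-labelled lines, of Spry4 in T and of Dusp4 in PT passed in all 13, with adjusted p up to 0.0498 (Spry2 in T). The member count higher in T than in PT, 2, was 1 with quantile normalization and with only those lines fitted, and 0 to 2 without single arrays. The replicate block left every member call as it was, with counts of 4, 5 and 2. Without 1 array, a line has a lone array that is assumed to vary like the others.

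Signs of uncalled members turned in these settings. Centred arrays gave 0.03 for Spred1 and 0.07 for Spred2 in T and 0.06 for Spry4 in PT. Quantile normalization gave 0.09 for Spry4 and -0.09 for Spred2 in PT, and -0.12 for Spred3 in T minus PT. Leaving out arrays gave Spred2 a range of -0.53 to 0.29 in T, -0.37 to 0.45 in PT and -0.54 to 0.23 in T minus PT, Spry1 -0.09 to 1.0 and Spred3 -0.21 to 0.35 in T minus PT. At a 99th percentile background limit (12.15 to 13.07), 2, 3 and 2 members were above background in T, PT and mVec, against 8, 7 and 9 at the 95th. Calls over all probe sets in T minus PT, 1258 higher and 599 lower, were 950 lower with an intensity trend, 454 and 205 without T replicate 2, 370 and 179 without PT replicate 1, and 625 and 176 without PT replicate 2. Each member has 1 probe set, so the average over probe sets was not run.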
